A study of Mus musculus with 19 samples.

Results

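The Ly6 genes examined here are Ly6a, Ly6c1, Ly6d, Ly6e, Ly6g and Ly6i, 6 genes that were looked up by name among the 41174 probes of a whole mouse genome array. They encode small proteins that share a cysteine-rich fold, are tethered to the outer cell membrane by a lipid anchor, and are widely used as surface markers of blood cell types. Ly6c1 encodes a form of Ly-6C, an antigen that marks inflammatory monocytes. Ly6a encodes Sca-1, a marker of hematopoietic stem cells that also appears on activated lymphocytes, and Ly6d marks cells of the B lymphocyte lineage. Several genes of the family, Ly6a and Ly6c1 among them, are known to be raised by interferons.

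A probe was found for 5 of the 6 genes, and there were 6 probes in all. The files give the names Ly6a, Ly6d, Ly6e and Ly6i to 1 probe each, which makes 4 probes. The name Ly6c1 does not occur in them, and the other 2 probes, listed under the older name Ly6c, were assigned to Ly6c1 through an accession and a synonym. No probe was found for Ly6g, which encodes the neutrophil marker Ly-6G, and this gene was not analysed here.

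RNA came from leukocytes of whole blood of male B6 and DBA/2 mice, the cells that the study calls PBMCs. The labels place every sample after administration of CAWS, a water-soluble mannoprotein and beta-glucan fraction of Candida albicans that is used to induce vasculitis in mice, and the study followed both strains after it. The methods also mention mice injected without CAWS, and no label gives a dose. The 0 w time is right after the last injection, and the mice sampled at the later weeks (2, 4, 8 or 9 w) were survivors. Each of these 5 times had 2 RNA samples from DBA/2 mice, whereas B6 mice gave 2 at 0, 4 and 8 w but a single one (1) at 2 and 9 w, which made 18 samples on 19 arrays in 10 groups. The sources give a range of ages for all mice together, not an age for each group.

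Values are log2 processed signals minus the 75th percentile of the same array, a percentile over the 11536 probes that exceeded background clearly on each of the arrays (well above background in the scanner software), so that 0 is the signal at that percentile. On each array 33.9% to 51.4% of spots were well above background, and the number of arrays limits the precision. Samples called replicate 1 and replicate 2 differed little, with a median SD over all tested probes of 0.12 to 0.16 in the 8 groups of 2. The labels call them biological replicates, and the methods of the study speak of RNA from individual mice. No label names the animal behind a sample, however. The SE and p from limma rest on the spread between these replicates. Whether that is a spread between mice or between arrays of like RNA cannot be told from the labels. Genes of leukocytes as a whole, such as Ptprc, were well above background for 6 of 6 markers in all samples. In B6 mice their median change from 0 w was -0.07 at 4 w (1 of 6 called lower) and 0.48 at 8 w (4 of 6 called higher). In DBA/2 mice it was 0.26 at 4 w (3 of 6 higher) and 0.20 at 8 w (1 of 6 higher). Erythroid markers summed to 6422 and 6581 times the 75th percentile signal in B6 samples at 0 w. The B6 sums were 5994 and 6477 at 4 w, and 2977 and 3074 at 8 w. The part of these shifts in the Ly6 values was not tested. Hepatocyte markers, 14 genes with Alb among them, summed to 53.8 and 55.5 times the 75th percentile signal in the B6 0 w samples and to 31.6 and 33.1 in the B6 8 w samples, against 1.14 to 2.6 in all other samples, and in these 4 libraries at least 13 of the 14 were well above background. Their part in the results on B6 mice was not tested. Platelet markers summed to 128 in the single B6 sample at 2 w, against 279 to 484 in all other samples. The part of this difference in the values at 2 w was not tested either. The array of DBA/2 9 w replicate 2 had 1187 outlier spots, and the others had 64 to 180.

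All 6 probes lie on chromosome 15 (mm8) within 346145 bases. From the lower coordinates upward they are Ly6d (NM_010742, 74589376-74589435), Ly6e (NM_008529, 74786292-74786351), Ly6i (NM_020498, 74810293-74810352), Ly6a (NM_010738, 74822378-74822437) and the pair named Ly6c. The first of this pair (NM_010741) lies at 74872537-74872596 and the second (D86232, described as a Ly-6C variant) at 74935462-74935520, with a start 62925 bases further on. The promoter windows of Ly6c1 and of its close relative Ly6c2 start 63134 bases apart in GRCm38, and GenBank entry D86232 is listed for both probes. The 2 probes are thus spaced much as the 2 genes are, and the D86232 probe may lie at Ly6c2. Which of these near copies each probe reads was not tested, and Ly6c1 here stands for what the 2 probes named Ly6c read. An unnamed probe that overlaps the NM_010741 probe by 44 bases reached that level over background on 0 of the 19 arrays.

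The windows of Ly6c1 and Ly6c2, from 250 bases before to 50 after a start of transcription, are shown because the D86232 probe of Ly6c1 had the largest change of the 6 probes in DBA/2 mice and because the 2 genes may share these probes. They come from RefSeq (GRCm38.p6, minus strand, read 5′ to 3′), which held windows for 2 of the 6 genes, Ly6c1 and Ly6g; the first window listed for each gene is given, and capitals mark GAGGAA or its reverse complement, the core of the site of PU.1, a factor of myeloid and B cells.
Ly6c1, chr15:75048788-75049087: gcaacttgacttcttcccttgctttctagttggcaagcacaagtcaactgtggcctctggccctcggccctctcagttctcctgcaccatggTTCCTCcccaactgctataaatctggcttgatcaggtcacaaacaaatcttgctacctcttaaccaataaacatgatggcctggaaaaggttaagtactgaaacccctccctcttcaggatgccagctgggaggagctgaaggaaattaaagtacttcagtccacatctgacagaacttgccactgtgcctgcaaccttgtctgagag
Ly6c2, chr15:75111922-75112221: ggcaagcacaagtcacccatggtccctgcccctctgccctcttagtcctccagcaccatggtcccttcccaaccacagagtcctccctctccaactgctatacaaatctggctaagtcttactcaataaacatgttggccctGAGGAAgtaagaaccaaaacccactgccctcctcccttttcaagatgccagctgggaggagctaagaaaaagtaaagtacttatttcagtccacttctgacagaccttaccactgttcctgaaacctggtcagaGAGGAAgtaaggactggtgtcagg
The windows aligned with 212 identical bases in 283 columns (74.9%). Each strand was searched for GAGGAA, for the interferon gamma-activated site TTCNNNGAA and for the interferon-stimulated response element (ISRE). The Ly6c1 window shown held 1 match and the Ly6c2 window 2, all of them to GAGGAA. This core was in 28.3% of all 32851 windows, TTCNNNGAA in 8.3% and the ISRE in 3.44%. The second windows listed for Ly6c1 and for Ly6c2 held 2 matches each, again all to GAGGAA. In Ly6c1, 1 of these is cut by the end of the window shown, so that the counts depend on the window. These matches are letters in a window of the B6 reference strain and no measure of binding.

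By the D86232 probe, Ly6c1 rose in DBA/2 mice at each later week and was at its highest at 8 w. This probe read 0.97 and 0.91 in the DBA/2 samples at 0 w, 1.69 and 1.64 at 2 w, 2.19 and 2.10 at 4 w, 3.04 and 3.01 at 8 w and 2.10 and 1.95 at 9 w. Every later DBA/2 sample lay above both 0 w samples. In B6 mice it read 1.98 and 1.94 at 0 w, 2.25 at 2 w, 1.43 and 1.54 at 4 w, 2.29 and 2.33 at 8 w and 2.20 at 9 w. The B6 samples thus started about as high as DBA/2 samples at 9 w, dipped at 4 w and stood slightly above their start at 8 w. The mean of 4 w and 8 w was 3.13-fold higher than 0 w in DBA/2 mice (log2 change 1.65, SE 0.07, limma adjusted p = 4.47e-07), with changes of 1.64 and 1.65 within the first and the second scan day. It differed by -0.06 in B6 mice (SE 0.07, limma adjusted p = 0.65), a mean over a fall at 4 w (-0.47, limma adjusted p = 0.0046) and a rise at 8 w (0.35, limma adjusted p = 0.0139).

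Among the 10 groups, DBA/2 mice had both the lowest Ly6c1 level (0.94 at 0 w) and the highest (3.03 at 8 w). The next group below the highest was B6 at 8 w, 0.68 lower at the nearest samples. B6 at 8 w, 2 w and 9 w and DBA/2 at 4 w followed each other with gaps of at most 0.05, DBA/2 at 4 w and 9 w were 0.000414 apart at their nearest samples, and DBA/2 at 9 w overlapped B6 at 0 w.

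The second Ly6c1 probe, NM_010741, was dimmer than the first (processed signal 62.6 to 292, against 732 to 3604). Pearson's r between the 2 probes was 0.97 over 17 samples. It read -2.11 and -2.41 in DBA/2 mice at 0 w, -1.90 and -2.03 at 2 w, -1.53 and -1.54 at 4 w and -0.58 and -0.71 at 8 w, and its 1 usable sample at 9 w read -1.44. The B6 samples read -1.42 and -1.51 at 0 w, -1.26 at 2 w, -2.11 and -1.90 at 4 w, -1.16 and -1.19 at 8 w and -1.34 at 9 w. The DBA/2 groups at 0 w, 4 w and 8 w did not overlap, and in B6 mice 4 w was again the lowest. Unlike the first probe, it did not pass the test in DBA/2 mice at 2 w (0.30, limma adjusted p = 0.158) or in B6 mice at 8 w (0.29, limma adjusted p = 0.135). Over the mean of 4 w and 8 w the DBA/2 change was 2.25-fold (log2 1.17, SE 0.11, limma adjusted p = 0.000112). The spot of DBA/2 9 w replicate 1 was marked as an outlier and dropped from this fit, and with such spots kept the change of 1.17 no longer passed the test (adjusted p = 0.122).

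**Figure D1:**
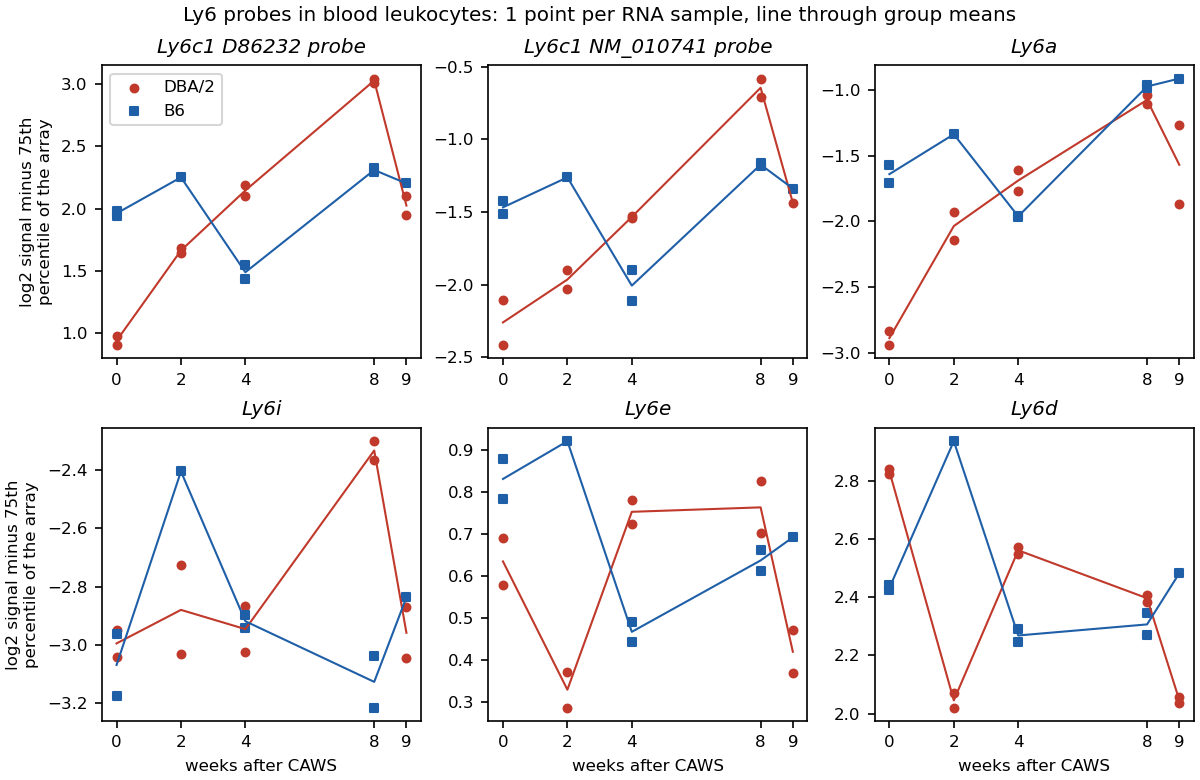
Normalized log2 signal (y axis, log2 signal minus the 75th percentile of the array) of the 6 Ly6 probes against weeks after CAWS (x axis), 1 point per RNA sample, circles for DBA/2 and squares for B6 mice, with lines through the group means. Both Ly6c1 probes and Ly6a climb in DBA/2 mice from the lowest group at 0 w, whereas Ly6d starts at 2.83 in DBA/2 mice and is at 2.05 at both 2 w and 9 w.

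Ly6a, which encodes the stem cell and activation antigen Sca-1, also rose in DBA/2 mice. It read -2.84 and -2.94 at 0 w, -1.93 and -2.14 at 2 w, -1.61 and -1.77 at 4 w, -1.04 and -1.11 at 8 w and -1.87 and -1.27 at 9 w. All later DBA/2 samples lay above both 0 w samples, and the 9 w samples were the furthest apart of any pair. In B6 mice the readings were -1.71 and -1.57 at 0 w, -1.34 at 2 w, -1.96 and -1.97 at 4 w, -0.98 and -0.96 at 8 w and -0.91 at 9 w. The DBA/2 mean of 4 w and 8 w was 2.84-fold above 0 w (log2 1.51, SE 0.15, limma adjusted p = 9.08e-05), and the B6 mean was 0.17 above it (SE 0.15, limma adjusted p = 0.516). In B6 mice the rise at 8 w passed the test (0.67, limma adjusted p = 0.0207), and the values at 4 w (-0.32, limma adjusted p = 0.261) and 9 w (0.73, limma adjusted p = 0.0603) did not.

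At 8 w the strains were 0.10 apart in mean Ly6a signal. The highest groups were B6 at 9 w (-0.91), B6 at 8 w (-0.97) and DBA/2 at 8 w (-1.08), and DBA/2 at 0 w (-2.89) was the lowest, 0.69 below the nearest DBA/2 sample at 2 w. Of the groups between, B6 at 2 w overlapped DBA/2 at 9 w, which overlapped B6 at 0 w, which in turn overlapped DBA/2 at 4 w, and B6 at 4 w overlapped DBA/2 at 2 w.

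Ly6i, a gene of the same chromosome 15 cluster, was dim (processed signal 25.8 to 84.8) and was highest at 8 w in DBA/2 mice and at 2 w in B6 mice. It read -3.04 and -2.95 in DBA/2 mice at 0 w, -3.02 and -2.87 at 4 w and -2.37 and -2.30 at 8 w, and at the same weeks -2.96 and -3.18, -2.90 and -2.94, and -3.21 and -3.04 in B6 mice. The 8 w samples of DBA/2 mice were the highest of all 18, followed by the B6 sample at 2 w (-2.40), and all other neighbouring groups below it overlapped. The DBA/2 mean of 4 w and 8 w was 0.36 above 0 w (SE 0.11, limma adjusted p = 0.0459), made up of 0.05 at 4 w (limma adjusted p = 0.888) and 0.66 at 8 w (limma adjusted p = 0.0047). In B6 mice the single sample at 2 w was also 0.66 above 0 w (limma adjusted p = 0.0215). The averaged call was lost without either sample of DBA/2 mice at 0 w (adjusted p = 0.229 and 0.124), 4 w (0.0509 and 0.114) or 8 w (0.0742 and 0.101), and without either B6 sample at 4 w (0.064 and 0.0637) or 8 w (0.0522 and 0.0534).

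Ly6e, known as an interferon-stimulated gene expressed by many cell types, had the narrowest range of the 6 probes over the samples. It read 0.69 and 0.58 in DBA/2 mice at 0 w, 0.37 and 0.29 at 2 w, 0.78 and 0.72 at 4 w, 0.82 and 0.70 at 8 w and 0.47 and 0.37 at 9 w. The B6 samples read 0.88 and 0.78 at 0 w, 0.92 at 2 w, 0.49 and 0.44 at 4 w, 0.61 and 0.66 at 8 w and 0.69 at 9 w. All 18 samples therefore lay between 0.29 and 0.92. In DBA/2 mice the mean of 4 w and 8 w was 0.12 above 0 w (SE 0.07, limma adjusted p = 0.279), while in B6 mice it fell by 0.28 (SE 0.07, limma adjusted p = 0.03), the only one of the 6 probes called there. In DBA/2 mice it fell by 0.31 at 2 w (limma adjusted p = 0.0364). The B6 call was lost without any 1 of the 6 B6 samples at 0 w, 4 w and 8 w (adjusted p = 0.0549 to 0.222).

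Ly6d, an early marker of B lymphocyte commitment that is also expressed in stratified epithelium, was the only one of the 6 probes to fall in DBA/2 mice in the mean of 4 w and 8 w. It read 2.84 and 2.82 at 0 w, 2.07 and 2.02 at 2 w, 2.57 and 2.55 at 4 w, 2.41 and 2.38 at 8 w and 2.06 and 2.04 at 9 w. All later DBA/2 samples lay below both 0 w samples, with the lowest values at 2 w and 9 w. In B6 mice it read 2.42 and 2.44 at 0 w, 2.94 at 2 w, 2.25 and 2.29 at 4 w, 2.27 and 2.34 at 8 w and 2.48 at 9 w. The DBA/2 mean of 4 w and 8 w fell by 0.35 (1.28-fold, SE 0.06, limma adjusted p = 0.0018), and the falls at 2 w and 9 w were of 1.73-fold and 1.72-fold (limma adjusted p = 0.000133 and 4.26e-05). In B6 mice the mean was -0.14 (SE 0.06, limma adjusted p = 0.129) and the single sample at 2 w was 1.42-fold higher (log2 0.50, limma adjusted p = 0.0026). With the background corrected by normexp, a model of signal and local background, in place of the scanner software's correction, the DBA/2 change was -0.34 with an adjusted p of 0.444.

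Counted over the mean of 4 w and 8 w, 5 of the 6 Ly6 probes changed in DBA/2 mice, 4 higher and 1 lower, and 1 of 6 changed in B6 mice, lower. Among all probes tested the percentage called was 22.9 in DBA/2 mice, 9.79 for higher signals alone, and 15 in B6 mice. The median change of the 6 probes was 0.76 in DBA/2 mice and -0.09 in B6 mice, against -0.14 and -0.08 over all probes tested. Since both strains have their own 0 w samples, these are separate comparisons, whereas the weeks of a strain share theirs. Week by week (2, 4, 8 and 9 w), DBA/2 mice had 4, 4, 5 and 4 of the 6 called, and the percentages over all probes were 15.7, 14.8, 24 and 27.7. B6 mice had 2, 3, 2 and 0 of the 6 called, over percentages of 13, 15.7, 21.2 and 9.33. For B6 mice at 9 w, a single sample against 2, limma gave 2 of the 6 probes, D86232 and Ly6a, without adjustment at the 0.05 level.

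The strain difference of the change, that is the DBA/2 change minus the B6 change over the mean of 4 w and 8 w, passed the test for 4 of the 6 probes, all of them higher in DBA/2 mice, where 13.2% of all probes were called and 6.48% were called higher. It was 1.71 for the D86232 probe of Ly6c1 (3.27-fold, SE 0.10, limma adjusted p = 1.44e-05), 1.29 for the NM_010741 probe (SE 0.15, limma adjusted p = 0.000946) and 1.33 for Ly6a (SE 0.21, limma adjusted p = 0.0029). It was 0.40 for Ly6e (SE 0.10, limma adjusted p = 0.0314), where the B6 change was a fall and the DBA/2 change did not pass the test. For Ly6i (0.31, SE 0.16, limma adjusted p = 0.259) and Ly6d (-0.21, SE 0.08, limma adjusted p = 0.131) the test was not passed. With 8 w alone in place of the mean, where both B6 groups compared carry the hepatocyte signal, the difference was 1.74 for the D86232 probe (adjusted p = 3.79e-05), 1.15 for Ly6a (adjusted p = 0.0101) and 0.72 for Ly6i (adjusted p = 0.0235), and with 4 w alone it was 1.68 for the D86232 probe (adjusted p = 2.03e-05). When the background was corrected by normexp, the difference for the D86232 probe was 1.59 (adjusted p = 0.0073), and those of Ly6a (0.88, adjusted p = 0.171), NM_010741 (0.94, adjusted p = 0.0873) and Ly6e (0.35, adjusted p = 0.968) were not past the threshold.

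**Figure D2:**
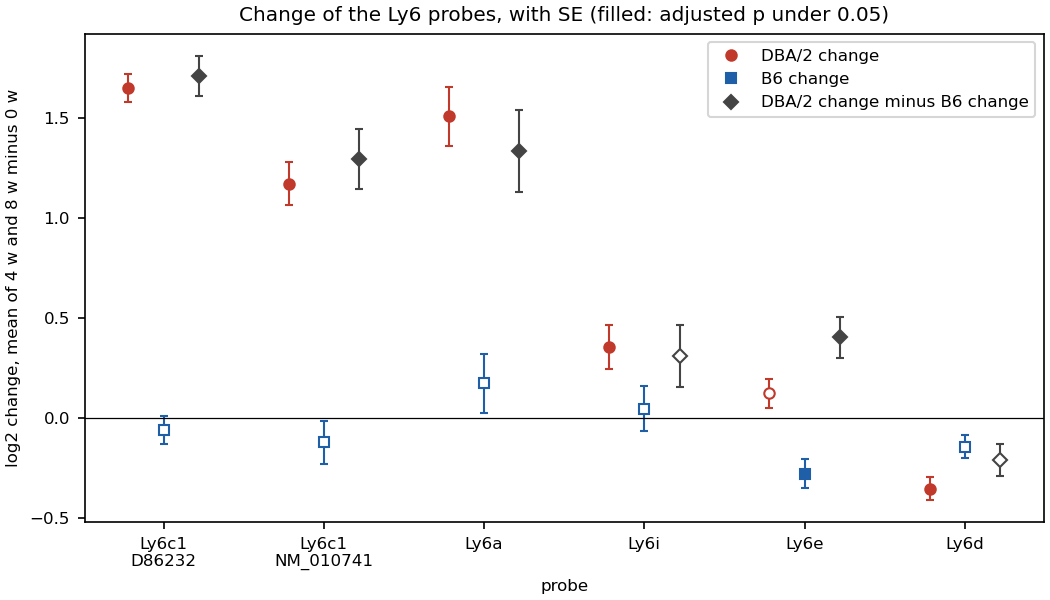
Log2 change of each Ly6 probe from 0 w to the mean of 4 w and 8 w (y axis) in DBA/2 mice (circles), in B6 mice (squares) and as the DBA/2 change minus the B6 change (diamonds), with SE bars from limma; filled symbols passed an adjusted p of 0.05. The 3 probes of Ly6c1 and Ly6a stand between 1.17 and 1.65 in DBA/2 mice and between -0.12 and 0.17 in B6 mice.

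Part of the strain difference lay in the 0 w samples. The DBA/2 arrays of 0, 2, 4 and 8 w lay on slides that held no B6 array. Strain and slide therefore cannot be told apart in the comparisons at these weeks. At 0 w the D86232 probe was 2.03-fold lower in DBA/2 than in B6 mice (log2 -1.02, limma adjusted p = 1.44e-05), NM_010741 1.73-fold lower (-0.79, limma adjusted p = 0.0014), Ly6a 2.38-fold lower (-1.25, limma adjusted p = 0.000423) and Ly6d 1.32-fold higher (0.40, limma adjusted p = 0.0013). By 4 w and 8 w Ly6c1 had passed the B6 level: the D86232 probe was higher in DBA/2 mice by 0.66 at 4 w (limma adjusted p = 0.000218) and by 0.72 at 8 w (limma adjusted p = 0.000177). Ly6a was not past the threshold at either of these weeks (0.27, limma adjusted p = 0.266, and -0.10, limma adjusted p = 0.71). Through the weeks in order, 4, 5, 4, 3 and 1 of the 6 probes were called between the strains, where the percentages over all probes were 32.7, 23.9, 32.1, 25.4 and 13.3.

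Averaged over the 5 weeks, 3 of the 6 probes were lower in DBA/2 mice and 41.9% of all probes were called. Ly6a was lower by 0.49 (SE 0.08, limma adjusted p = 0.0011), Ly6e by 0.13 (SE 0.04, limma adjusted p = 0.0295) and Ly6d by 0.11 (SE 0.03, limma adjusted p = 0.0223), and the D86232 probe differed by -0.08 (limma adjusted p = 0.129). A base that differs between the strains under a probe would shift its signal at every week and cannot be told apart from a difference in RNA level. The same holds for the slides, which the strains did not share at 0, 2, 4 and 8 w. None of the 6 probes had a difference of the same sign at all 5 weeks. This does not tell them apart either, because changes over the weeks add to a constant shift and can turn its sign.

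The other genes with a Ly6 or uPAR domain, a list of 36, had a median close to that of all probes. A probe was present for 31 and 27 could be tested, of which 3 rose and 2 fell in DBA/2 mice, with a median of -0.13 against -0.14 over all probes. Those that rose were Cd177, a neutrophil surface protein (2.03, limma adjusted p = 0.000202), Plaur, the urokinase receptor of myeloid cells (0.98, limma adjusted p = 0.00027), and Ly6g6f (0.88, limma adjusted p = 0.000107). Lypd4 (-1.52, limma adjusted p = 0.0228) and Cd59a, an inhibitor of the complement attack complex (-0.38, limma adjusted p = 0.0105), fell. In B6 mice 3 rose and 1 fell, with Cd59a higher there by 1.04 (limma adjusted p = 5.01e-05). Among all probes tested, 22.9% were called in DBA/2 mice and 15% in B6 mice, in either direction. Ly6f, Ly6m and Ly6k did not pass the test in DBA/2 mice, with 0.17 for Ly6f, 0.07 for Ly6m and -0.21 for Ly6k.

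Interferon-stimulated genes rose in DBA/2 mice alongside Ly6c1 and Ly6a. Of 24 type I interferon-stimulated genes tested, 21 rose in DBA/2 mice, with a median of 1.38, and 7 rose and 2 fell in B6 mice, with a median of 0.11. Oasl2, an antiviral oligoadenylate synthetase-like protein, rose by 2.99 in DBA/2 mice and by 0.51 in B6 mice, and Irf7, a master regulator of the interferon response, rose by 1.77 in DBA/2 mice and fell by 0.63 in B6 mice. Of 18 targets of type II interferon, 15 rose and 1 fell in DBA/2 mice (median 0.98), and 2 rose and 4 fell in B6 mice (median -0.06). Iigp1, a GTPase against intracellular pathogens, rose by 1.26 in DBA/2 mice and fell by 1.06 in B6 mice. In the strain difference of the change, 16 of the 24 and 16 of the 18 were higher in DBA/2 mice. The medians over all probes tested were -0.14, -0.08 and -0.04 for DBA/2 mice, B6 mice and the difference. The percentages called over all probes were 22.9, 15 and 13.2. In level, the type I list started lower in DBA/2 mice, with a median of -2.55 at 0 w against -1.68 in B6 mice. The type II list started at -1.08 and -0.90. Averaged over the 5 weeks, 8 of the 24 were higher and 8 lower in DBA/2 mice. Of the 18, 10 were higher and 3 lower, where 41.9% of all probes were called.

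Markers of classical monocytes, which are among the cells that carry Ly-6C, rose in the DBA/2 samples as well. Of 14 classical monocyte markers, 11 rose in DBA/2 mice (median 1.16), and 6 rose and 1 fell in B6 mice (median 0.37). Ccr2, the chemokine receptor by which these monocytes leave the marrow, rose by 1.63 in DBA/2 mice and 0.69 in B6 mice, and Csf1r, the receptor of macrophage colony-stimulating factor, rose by 1.57 in DBA/2 mice and was at -0.11 in B6 mice (limma adjusted p = 0.595). In the strain difference of the change, 9 of the 14 were higher and 2 lower in DBA/2 mice. The lower ones were Chil3 (0.22 in DBA/2 and 1.09 in B6 mice, difference -0.87, limma adjusted p = 0.0044) and F13a1 (0.82 and 1.39, difference -0.57, limma adjusted p = 0.0074). The summed signal of the 14 markers was 123 to 131 in DBA/2 mice at 0 w and 274 to 307 at 8 w, and 154 to 165 and 228 to 246 in B6 mice. Neutrophil markers rose in both strains, 11 of 13 in each, with medians of 2.06 in DBA/2 and 2.15 in B6 mice. Natural killer cell markers rose for 6 of 8 in DBA/2 mice (median 0.56) and fell for 7 of 8 in B6 mice (median -0.67). Over all probes, 22.9% were called in DBA/2 mice, 15% in B6 mice and 13.2% in the strain difference. In RNA of mixed cells, more cells of a type and more RNA per cell cannot be told apart, and the part of these cell types in the Ly6 changes was not tested.

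B cell markers fell in DBA/2 mice, as Ly6d did. In DBA/2 mice 8 of 10 fell (median -0.67), and in B6 mice 0 of 10 passed the limma test in either direction over the mean of 4 w and 8 w, with a median of -0.20, though 4 had an unadjusted p under 0.05. Cd22, an inhibitory receptor of B cells, fell by 0.79 in DBA/2 mice, Cd79b, a chain of the B cell receptor complex, by 0.66, and Ms4a1, which encodes CD20, by 0.37. At 2 w 8 of the 10 fell in DBA/2 mice (median -0.88, against -0.05 over all probes). In the single B6 sample at 2 w their median change was 0.27, against 0.08 over all probes. Ly6d fell in DBA/2 mice at that week. It was 0.50 above 0 w in this B6 sample, which had the low platelet signal. At 4 w 5 of the 10 fell in each strain (medians -0.53 in DBA/2 and -0.36 in B6 mice). Of all probes, 15.7% were called at 2 w in DBA/2 mice, and 14.8% and 15.7% at 4 w in DBA/2 and B6 mice. Over the mean of 4 w and 8 w, T cell markers fell for 9 of 13 in DBA/2 and 5 of 13 in B6 mice (medians -0.47 and -0.30). Over that mean 22.9% of all probes were called in DBA/2 mice and 15% in B6 mice. The list for stratified epithelium, the other tissue that expresses Ly6d, had 2 testable genes of 6 and its summed signal was 0.112 to 0.242 in all samples. Endothelial markers, for cells that express Ly6a and Ly6c1, passed the limma test for 0 of 7 in DBA/2 mice over the mean of 4 w and 8 w, where 1 had an unadjusted p under 0.05, and 1 of 7 was higher there at 2, 4 and 9 w each. In B6 mice 1 rose, Vwf (0.70, limma adjusted p = 0.000301), a gene that platelets also express.

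**Figure D3:**
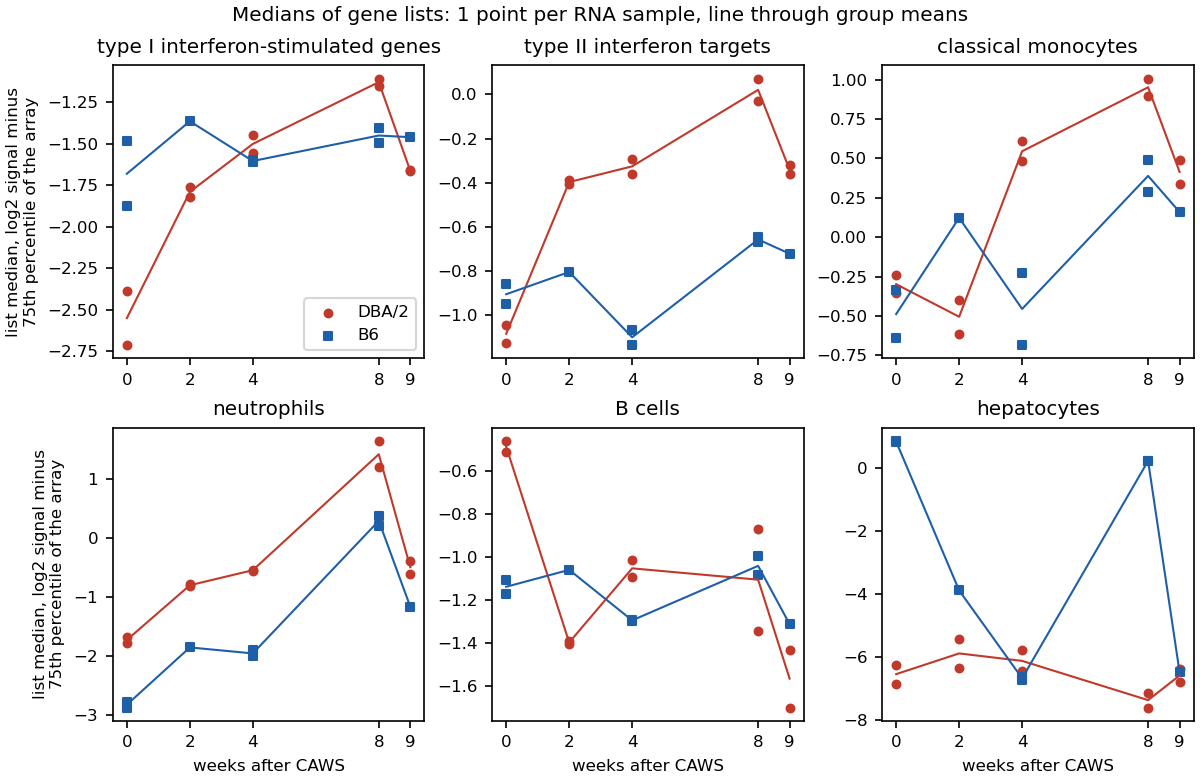
Median normalized log2 signal (y axis) of the tested genes of 6 lists against weeks after CAWS (x axis), 1 point per RNA sample, circles for DBA/2 and squares for B6 mice, with lines through the group means. The 2 interferon lists climb in DBA/2 mice to 8 w, neutrophil markers climb in both strains, B cell markers are highest in DBA/2 mice at 0 w, and hepatocyte markers are high in B6 mice at 0 w and 8 w.

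The genes whose signals followed each member most closely were found by Pearson's r over the 18 samples, which share replicate pairs, strains and weeks, so that r is a description. For the D86232 probe of Ly6c1 they included Serpina3g (r = 0.96), a serine protease inhibitor, Zbp1 (0.96), a sensor of nucleic acids, Ncf4 (0.94), a subunit of the phagocyte oxidase, and Lair1 (0.93), an inhibitory collagen receptor. Over the 10 DBA/2 samples alone the r of these genes were 0.96 to 0.98. For the NM_010741 probe, over 17 samples, Lair1 (0.96) and Zbp1 (0.94) were again among the 5, with Gm6548 (0.96), Csf1r (0.93) and Rtf2 (0.92).

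Ly6a was closest to Pgd (0.93), an enzyme of the pentose phosphate pathway, to the interferon-stimulated Oasl2 (0.92), to the class I antigen gene H2-K1 (0.91), to Rsph3a (0.91) and to Oas1f (0.91). Ly6d was closest to 4 genes of B cells and 1 immunoglobulin light chain segment, namely Cd79b (0.92), Igkv4-55 (0.92), Ms4a1 (0.92), Blnk (0.92), an adaptor of the B cell receptor, and Ighm (0.91), the IgM heavy chain, with r of 0.94 to 0.99 over DBA/2 samples. Ly6e was closest to Slc25a46 (0.93), Myo1g (0.91), Eps15l1 (0.91), S1pr5 (0.91) and Ctnnbl1 (0.91). Ly6i had lower values, from Mrpl20 (0.83) and Gbp2b (0.78), an interferon-induced guanylate-binding protein, to Sf3b6 (0.77), Ube2d3 (0.75) and Rpl7 (0.75). Between members, r was 0.87 for Ly6a with the D86232 probe and -0.16 for Ly6d with it. With list medians, r of the D86232 probe was 0.89 for type I interferon-stimulated genes, 0.77 for classical monocytes and 0.75 for type II interferon targets. It was 0.69 for neutrophils and -0.58 for T cells. Ly6d had an r of 0.78 with B cells and -0.74 with platelets. Ly6e had 0.81 with natural killer cells, and 0.30 and -0.01 with the type I and type II lists.

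**Figure D4:**
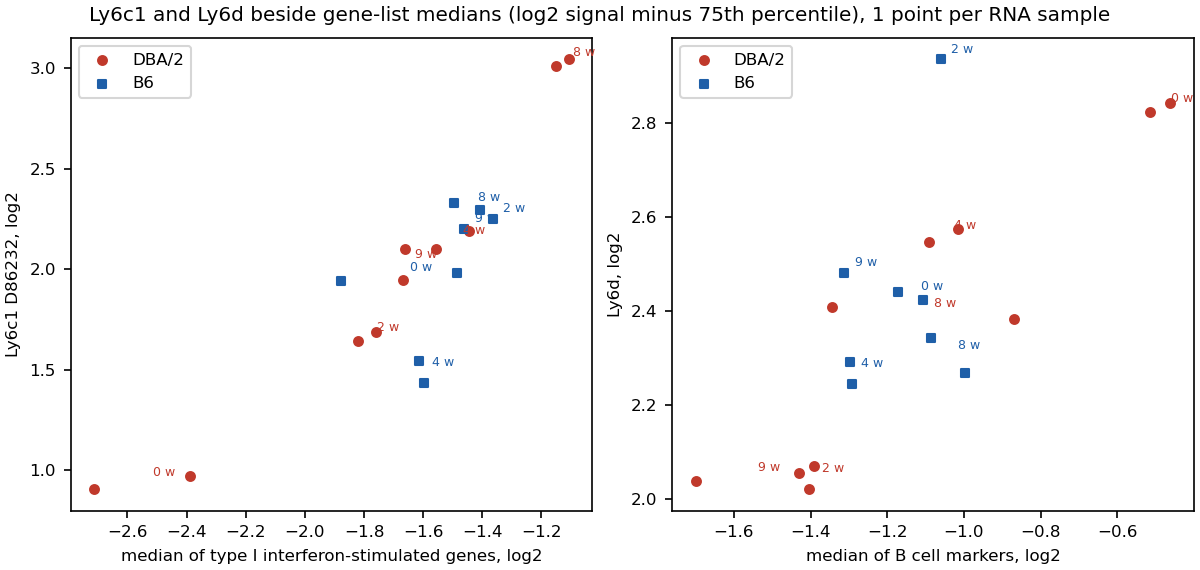
Left, normalized log2 signal of the D86232 probe of Ly6c1 (y axis) against the median of the type I interferon-stimulated genes (x axis); right, Ly6d (y axis) against the median of the B cell markers (x axis). Each point is 1 of 18 RNA samples, circles for DBA/2 and squares for B6 mice, labelled by week. The lists shown are those with the highest r, 0.89 on the left and 0.78 on the right. On the left the DBA/2 samples at 0 w sit lowest. On the right they sit furthest right, and the B6 sample at 2 w lies above them.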

How the data were processed

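The deposited files hold the intensity of each spot of 19 1-colour Agilent arrays, read by the authors with Agilent Feature Extraction 9.5.3.1, which subtracted background and detrended each array. Feature coordinates are in mm8. The deposited value table holds the same intensities without scaling between arrays and served as an alternative. Outlier spots were left out, spots of a probe and the 2 arrays of B6 0 w replicate 2 were averaged, and log2 signals were set against the 75th percentile of the array. A probe entered the test if 2 or more samples had it well above background (22939 probes), and limma 3.58.1 (R 4.3.3) modelled 10 group means with Benjamini-Hochberg adjustment over all probes at 0.05. The study names no test. Signals of 33.9% to 51.4% of spots were well above background. The fits were run on simulated data with independent noise, as a check of the code. That run does not show how the fit handles the shared replicate deviations given below. Gene names came from accessions, file names and synonyms, and Ly6c was read as Ly6c1. For each member the 5 genes with the highest Pearson's r are named, except 1 that is not reported here, and lists use 1 probe per gene. The members and lists were chosen with earlier results of these data known. Replicate numbers coincide with 2 scan days; of 28 pairs of groups, 12 had a correlation of replicate deviations over 0.1 (-0.01 to 0.46). These were the 6 pairs among DBA/2 groups of 0 to 8 w and the 6 among DBA/2 at 9 w and the B6 groups, so that deviations were shared within these sets and not across them. The 2 sets also lay on separate slides, so that the sharing followed slides as well as scan days. DBA/2 arrays of 9 w shared slides with B6 arrays, and their comparison with 0 w crosses slides. Since not every pair was over 0.1, the replicate number was not used as a block in the reported fit, which therefore leaves this sharing unmodelled.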

Additional observations from a re-analysis of the deposited data

Results flagged for a closer look

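For 4 probes the change from 0 w to the mean of 4 w and 8 w differed between the strains when the difference itself was tested in the limma fit. It was 1.71 for the D86232 probe of Ly6c1, 1.29 for the NM_010741 probe of Ly6c1, 1.33 for Ly6a and 0.40 for Ly6e, each as the DBA/2 change minus the B6 change on the log2 scale with 2 samples per group.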

How the results depend on the processing

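The rise of the D86232 probe of Ly6c1 in DBA/2 mice (1.21 to 2.09), that of Ly6a (0.95 to 1.81) and the strain difference of the D86232 probe (1.11 to 1.83) kept their direction and passed the test under every alternative run. In order, the counts that follow are for DBA/2 mice, B6 mice, the strain difference of the change and the strain level, with 5246, 3438, 3031 and 9594 of all probes and 5, 1, 4 and 3 Ly6 probes called, and 17 and 7 calls by week in DBA/2 and B6 mice. Under normexp they were 586, 179, 90 and 2363 for all probes, 3, 0, 1 and 1 for Ly6 probes, and 7 and 0 by week. In the deposited value table without scaling, where the median of all probes in B6 mice was 0.449, B6 mice had 9374 calls (9045 higher and 329 lower, against 1669 and 1769) and the strain difference 9196 (453 higher and 8743 lower, against 1487 and 1544), and the Ly6 counts were 3 in DBA/2 mice, 4 in B6 mice, 2 in the difference and 12 by week in B6 mice. With no filter on dim probes there were 3055, 1632 and 1260 calls, no Ly6 call in B6 mice (0) or by week in them (0), and 1 in the strain level. With slide as a block, under which the strain level could not be fitted, B6 mice had 1209 and the difference 1733 calls, with 0 Ly6 calls in B6 mice and 4 by week. B6 samples alone gave 2121, 0 and 2. Quantile normalization and the 75th percentile over all probes each gave 0 Ly6 calls in B6 mice and 1 in the strain level, and the median of each array gave 0 in B6 mice. The last pair of alternatives was chosen after seeing the data: 4 w alone gave 3395 calls in DBA/2 mice and 3 Ly6 calls in B6 mice, and 8 w alone gave 2 there. The causes of these moves were not tested.

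Leaving out 1 sample at a time gave 3078 to 5618 calls in DBA/2 mice, 1712 to 3787 in B6 mice, 1822 to 3258 in the difference and 8858 to 9962 in the strain level, and 4 to 5, 0 to 1, 3 to 4 and 2 to 3 Ly6 calls, with 14 to 17 and 3 to 8 by week. The low ends came without 1 of the 0 w samples: 3099 and 3078 calls in DBA/2 mice without DBA/2 0 w replicate 1 or 2 (difference 1845 and 1865), and 1712 and 1840 in B6 mice without B6 0 w replicate 1 or 2 (difference 1822 and 1957, by week 3 and 3). Directions turned in the value table for the D86232 probe (B6 change 0.47, strain level 0.30), Ly6d (0.38 and 0.27) and Ly6e (0.25 and 0.25, strain difference -0.20), in 8 w alone for the D86232 probe in B6 mice (0.35) and under quantile normalization for the strain level of Ly6d (0.0442). With the replicate block the counts were 6566, 4766, 4195 and 10744 for all probes, 5, 1, 4 and 3 for Ly6 probes, and 18 and 7 by week. Over single probes, 1397 values kept direction and side of the threshold, 152 lost the call, 9 gained it, 15 moved and 9 turned. Dim probes such as Ly6i are limited by signal over background.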
